A study of Mus musculus with 2 samples.

Results

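Mouse hindlimb mesenchyme contains a small posterior population that makes Sonic hedgehog (Shh), the secreted signal of the zone of polarizing activity. In 2 single-cell RNA libraries, 494 cells were taken as Shh-expressing, out of 16136 mesenchymal cells and 29393 barcodes. The cells were chosen by their Shh UMIs (unique molecular identifiers, 1 per captured mRNA molecule). Mesenchymal cells had at least 1000 detected genes, at most 10% mitochondrial UMIs, at least 2 UMIs of Prrx1 (a limb mesenchyme transcription factor), no UMI of Epcam, Cdh5, Lbx1 or Csf1r, and under 2% globin UMIs. Shh cells had 2 or more Shh UMIs among these. They were set against 1221 posterior distal neighbours, which had no Shh UMI, at least 2 UMIs of Hoxd13 plus Hoxa13, at least 2 of Hand2 and at least 1 of Tbx2 plus Tbx3. Because Shh, Hoxd13, Hoxa13, Hand2, Tbx2 and Tbx3 chose the cells, their values are given as a description with no test.

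Each library was made from the hindlimb of 1 FVB embryo at E11.5. Both embryos carried 2 reporters at H11, a safe-harbour locus for transgenes. In each, the ZRS, the limb enhancer of Shh, drove mCherry in its reference form and eGFP in a form with the 404G>A substitution. The embryos carried different constructs, dual-enSERT-1 and dual-enSERT-2. The genotype of the second adds an element named B on each outer side and one named SI in the middle, which the labels do not spell out. With 1 embryo per construct, differences between the libraries cannot be told apart from differences between embryos and were not tested.

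In the limb bud, Shh spreads from posterior mesenchyme and binds Patched receptors on receiving cells. That binding frees Smoothened to act through the Gli transcription factors, whose targets include Ptch1 and Gli1 themselves. Shh also maintains Grem1, a BMP antagonist, in cells next to the source, and through Grem1 it maintains the FGFs of the overlying ectodermal ridge, which in turn keep Shh on. Cells that make Shh, and the progeny of such cells, are known to lack Grem1.

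The 352 Shh cells of dual-enSERT-1 were 2.84% of its gated mesenchyme (exact Clopper-Pearson interval 2.56 to 3.15%), and the 142 Shh cells of dual-enSERT-2 were 3.79% (3.20 to 4.45%). All intervals here are at 95% and cover counting error only. The Shh UMI count was 2 in 122 and 45 cells, 3 to 4 in 135 and 40 cells, and 5 or more in 95 and 57 cells of dual-enSERT-1 and dual-enSERT-2. Just outside the threshold stood 260 and 77 gated cells with 1 Shh UMI. The Shh cells held 83.8% and 89.9% of the Shh UMIs in gated mesenchyme, and the highest counts per cell were 16 and 19. Median depth was 19580 UMIs in Shh cells and 20474 UMIs in neighbours of dual-enSERT-1, and 31373.5 UMIs in Shh cells and 30933 UMIs in neighbours of dual-enSERT-2. Scrublet called 16.2% of Shh cells and 27.1% of neighbours doublets in dual-enSERT-1, against 9.0% of all gated mesenchyme, and 0.704% of Shh cells and 2.5% of neighbours in dual-enSERT-2. The libraries shared 49 cell barcodes, and 0 were Shh cells in both.

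Among 752 and 1489 cells of other lineages (2 or more UMIs of Epcam, Cdh5, Lbx1 or Csf1r, or at least 20% globin UMIs, without Prrx1), 0 and 1 reached 2 Shh UMIs. All 8 limb mesenchyme markers had a UMI in both groups, Prrx1 by the gate. Of the 8 ectoderm markers, 5 had a UMI in the Shh cells of each library and Epcam was at 0 by the gate. Their summed level was 12.99 CPM (UMIs scaled to a common total per group) in Shh cells and 11.03 CPM in neighbours of dual-enSERT-1. The ectoderm sums were 3.61 CPM in Shh cells and 2.60 CPM in neighbours of dual-enSERT-2. Endothelial markers, without Cdh5, summed to 17.0 CPM in Shh cells and 16.9 CPM in neighbours of dual-enSERT-1, and to 17.6 CPM in Shh cells and 15.3 CPM in neighbours of dual-enSERT-2. Muscle and macrophage sums, to which Lbx1 and Csf1r add 0 by the gate, were at most 0.874 CPM in Shh cells and at most 2.98 CPM in neighbours. Neuron markers, none used by the gate, summed to 16.2 CPM in Shh cells and 23.3 CPM in neighbours of dual-enSERT-1. In dual-enSERT-2 they summed to 6.79 and 8.74 CPM. Neural crest and glia markers, also outside the gate, summed to 5.99 and 5.28 CPM in dual-enSERT-1, and to 2.97 and 4.28 CPM in dual-enSERT-2. The apical ectodermal ridge list (6 markers) summed to 10.9 CPM in Shh cells and 12.3 CPM in neighbours of dual-enSERT-1, with Fgf4 at 0 in both groups, and to 5.73 CPM in Shh cells and 3.54 CPM in neighbours of dual-enSERT-2. Erythroid markers, from globin RNA, summed to 285.7 CPM in Shh cells and 281.4 CPM in neighbours of dual-enSERT-1. They reached 2320.0 CPM in Shh cells and 2305.7 CPM in neighbours of dual-enSERT-2. The contribution of these other cells to the results was not tested.

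The genes that marked the population were read first. Levels are CPM pooled over the cells of a group, and log2 folds of single libraries add a pseudocount of 1 CPM. Shh itself (chromosome 5, 28661813 to 28672254, minus strand, GRCm39) stood at 167 CPM in dual-enSERT-1, compared with 145 CPM in dual-enSERT-2, and at 0 in the neighbours by construction. Tbx2, a T-box repressor of posterior mesenchyme, had 146 CPM in Shh cells and 87.5 CPM in neighbours of dual-enSERT-1, and 104 CPM in Shh cells and 72.0 CPM in neighbours of dual-enSERT-2. Tbx3 had 92.7 CPM in Shh cells and 57.3 CPM in neighbours of dual-enSERT-1, and 80.6 CPM in Shh cells and 76.3 CPM in neighbours of dual-enSERT-2. Tbx2 was thus the higher in Shh cells of both libraries, and Tbx3 differed by less in the second, although neighbours were required to hold a UMI of either gene.

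The Hox genes and Hand2, which chose the neighbours, were read next. Hoxd13 had 137 CPM in Shh cells and 149 CPM in neighbours of dual-enSERT-1, and 72.9 CPM in Shh cells and 79.4 CPM in neighbours of dual-enSERT-2. Hoxa13 had 187 CPM in Shh cells and 150 CPM in neighbours of dual-enSERT-1, and 93.9 CPM in Shh cells and 61.8 CPM in neighbours of dual-enSERT-2. Hoxa13 was thus the higher in Shh cells of both libraries. Hoxd13 had no one direction, since the Shh cells that also met the gate of the neighbours had 141 CPM in dual-enSERT-1 and 86.1 CPM in dual-enSERT-2. Hand2, an activator of Shh, had 286 CPM in Shh cells and 296 CPM in neighbours of dual-enSERT-1, and 330 CPM in Shh cells and 306 CPM in neighbours of dual-enSERT-2. Of the Shh cells, 303 of 352 and 98 of 142 also met the Hox, Hand2 and Tbx conditions of the neighbours. The condition missed most often in dual-enSERT-2 was Hoxd13 plus Hoxa13, by 33 cells, and in dual-enSERT-1 it was Hand2, by 21 cells.

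Genes were then tested across the whole table. UMIs were summed per library and cell group, giving 4 profiles, and edgeR's quasi-likelihood test with library as a block was run with Benjamini-Hochberg adjustment. A gene is called when its adjusted p is under 0.05. Of 13607 genes tested, 374 were called (2.75%): 195 were higher in Shh cells (1.43%) and 179 were lower (1.32%). The direction was the same in both libraries for 372 of the 374, which the blocked fit favours, since it calls genes whose 2 differences are alike. Over all genes tested it was the same for 7241 of 13607. The fit had 1 pair of profiles per embryo, so its p-values rest on 2 embryos with different constructs. With 1 residual degree of freedom, they rest largely on a variance shared across genes, which counted as 12.35 prior degrees of freedom. They do not measure the spread of a single gene between embryos well. DESeq2 with the same model called 118 genes, each of them among the 374. Without the library block edgeR called 0 genes (288 at an unadjusted p under 0.05).

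**Figure D1:**
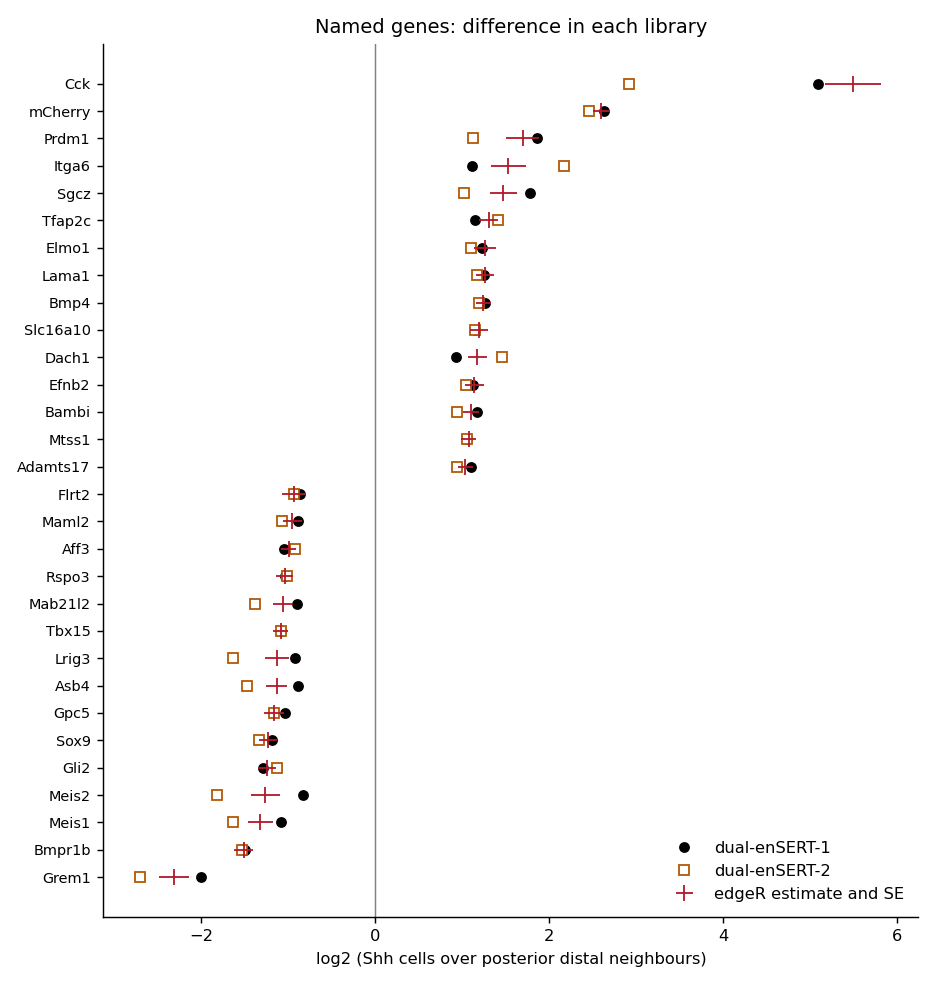
Log2 difference in pooled CPM between Shh cells and posterior distal neighbours (x axis) for the 15 higher and 15 lower named genes (y axis). Filled circles are dual-enSERT-1, open squares dual-enSERT-2, and the red marks the edgeR estimate with its standard error. Genes were named only where both libraries had the same sign. Cck (5.50) and Grem1 (-2.32) had the largest estimates in either direction.

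Cck, which encodes the secreted peptide cholecystokinin, had the largest rise among the named genes. It lies on chromosome 9 (121315695 to 121324863, minus strand, GRCm39). Its pooled level was 64.2 CPM (exact Poisson interval 58.8 to 70.0) in Shh cells and 0.913 CPM (0.579 to 1.37) in neighbours of dual-enSERT-1, and 24.8 CPM in Shh cells and 2.42 CPM in neighbours of dual-enSERT-2. The ratio was 70.3 (46.3 to 112) in dual-enSERT-1, against 10.3 (5.77 to 19.8) in dual-enSERT-2, and edgeR gave a log2 difference of 5.50 ± 0.32 (SE, adjusted p = 9.06e-07). The transcript was nevertheless found in a minority of the Shh cells, 80 of 352 and 19 of 142. The tenth of Shh cells with the most Cck held 82.5% of its UMIs in dual-enSERT-1, compared with 95.7% in dual-enSERT-2, with single cells reaching 39 and 37 UMIs. After thinning each cell to 5000 UMIs, a Cck UMI was found in 14.6% of Shh cells (11.05 to 18.7%) and 0.378% of neighbours (0.103 to 0.966%) of dual-enSERT-1, and in 7.75% of Shh cells (3.93 to 13.4%) and 1.88% of neighbours (0.388 to 5.38%) of dual-enSERT-2.

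Bmp4, a BMP ligand (chromosome 14, 46620250 to 46636745, minus strand), was found in more Shh cells than Cck or Prdm1. It had 387 CPM in Shh cells and 161 CPM in neighbours of dual-enSERT-1, and 347 CPM in Shh cells and 151 CPM in neighbours of dual-enSERT-2, a log2 difference of 1.24 ± 0.09 (SE, edgeR adjusted p = 3.94e-06). In unthinned counts 351 of 352 and 141 of 142 Shh cells held a Bmp4 UMI. That share is not set against neighbours here, and Bmp4 was not particular to Shh cells. Cells with 2 or more Epcam UMIs and no Prrx1 had 153 CPM of Bmp4 in dual-enSERT-1 and 215 CPM in dual-enSERT-2. Prdm1, a zinc-finger repressor (chromosome 10, 44313171 to 44404497, minus strand), had 25.4 CPM in Shh cells and 6.27 CPM in neighbours of dual-enSERT-1, and 28.8 CPM in Shh cells and 12.7 CPM in neighbours of dual-enSERT-2. Its log2 difference was 1.70 ± 0.19 (SE, edgeR adjusted p = 0.000132). In unthinned counts a Prdm1 UMI was found in a minority of Shh cells, 110 of 352 and 64 of 142. Cck, Bmp4 and Prdm1, the markers that the choice of cells did not use, were called higher by edgeR and by DESeq2. These markers were picked with earlier results of these data known, so their calls are a description and no independent check.

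Grem1, the secreted BMP antagonist (chromosome 2, 113576509 to 113589000, minus strand), had the largest fall among the named genes. It had 10.99 CPM in Shh cells and 47.2 CPM in neighbours of dual-enSERT-1, and 4.24 CPM in Shh cells and 33.1 CPM in neighbours of dual-enSERT-2. The log2 difference was -2.32 ± 0.17 (SE, edgeR adjusted p = 5.29e-06). Read after thinning each cell to 5000 UMIs, 2.86% of 350 Shh cells and 14.6% of 1057 neighbours of dual-enSERT-1 had a Grem1 UMI, and 2.11% of 142 Shh cells and 11.9% of 160 neighbours of dual-enSERT-2 did. In the other lineages the thinned share was 0.278% and 0.340%. Without thinning, Grem1 was found in 9.94% of Shh cells and 31.2% of neighbours of dual-enSERT-1, and in 5.63% of Shh cells and 33.8% of neighbours of dual-enSERT-2.

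The promoter windows of these 4 genes are printed because the genes carry the contrast between the groups. They are RefSeq windows on GRCm38.p6, running from 250 bases before to 50 after the annotated start, and each is written 5′ to 3′ on the strand of the gene, with any E-box CACCTG or its complement CAGGTG in capitals.
Cck, minus strand, chr9:121495645-121495944: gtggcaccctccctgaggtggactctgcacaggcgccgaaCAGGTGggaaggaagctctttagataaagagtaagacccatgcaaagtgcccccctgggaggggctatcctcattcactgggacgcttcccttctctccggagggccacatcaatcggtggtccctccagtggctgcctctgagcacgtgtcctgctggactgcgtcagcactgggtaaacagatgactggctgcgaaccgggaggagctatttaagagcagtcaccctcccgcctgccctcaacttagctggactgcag
Bmp4, minus strand, chr14:46390620-46390919: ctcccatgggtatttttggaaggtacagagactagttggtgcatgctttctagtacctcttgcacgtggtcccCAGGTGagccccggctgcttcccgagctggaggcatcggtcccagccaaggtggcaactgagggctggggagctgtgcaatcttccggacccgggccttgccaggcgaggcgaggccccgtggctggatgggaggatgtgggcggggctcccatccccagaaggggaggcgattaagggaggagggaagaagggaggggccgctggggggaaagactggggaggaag
Prdm1, minus strand, chr10:44458699-44458998: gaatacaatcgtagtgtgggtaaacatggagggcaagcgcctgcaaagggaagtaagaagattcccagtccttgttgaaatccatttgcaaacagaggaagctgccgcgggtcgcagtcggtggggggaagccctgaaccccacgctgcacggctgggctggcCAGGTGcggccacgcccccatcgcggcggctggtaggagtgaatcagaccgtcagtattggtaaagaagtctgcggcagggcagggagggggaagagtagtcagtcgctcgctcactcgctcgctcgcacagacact
Grem1, minus strand, chr2:113758599-113758898: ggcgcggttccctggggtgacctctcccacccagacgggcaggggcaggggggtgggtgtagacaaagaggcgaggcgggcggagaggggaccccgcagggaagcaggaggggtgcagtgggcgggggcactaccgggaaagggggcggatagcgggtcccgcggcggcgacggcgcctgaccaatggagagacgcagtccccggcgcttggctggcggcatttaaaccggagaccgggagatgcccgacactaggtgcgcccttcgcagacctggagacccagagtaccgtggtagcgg
Of the 30 named genes, 20 had a window in the table. The windows of Cck, Bmp4 and Prdm1 each held an E-box, as did those of 8 of the 20 named genes in all, against 22.6% of the 27025 genes with a window. Also searched on both strands were GACCACCCA (GLI), AGGTGTGA (T-box), TGACGTCA (CRE), CCGGAAGT (ETS), TATAAA and CAATAAA (posterior HOX), found in 0, 0, 0, 1, 6 and 1 of the 20 named genes and in 0.289, 1.48, 2.03, 4.31, 15.7 and 5.33% of all genes. No motif searched was found in the Grem1 window. A match describes letters in a window and no binding was measured.

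Both reporters were called higher in Shh cells. ZRS-driven mCherry had 573 CPM in Shh cells and 91.4 CPM in neighbours of dual-enSERT-1, and 190 CPM in Shh cells and 33.7 CPM in neighbours of dual-enSERT-2. The log2 difference was 2.60 ± 0.10 (SE, edgeR adjusted p = 7.71e-09), the smallest adjusted p of the table. For eGFP, driven by ZRS404G>A, the levels were 405 CPM in Shh cells and 265 CPM in neighbours of dual-enSERT-1, and 223 CPM in Shh cells and 40.6 CPM in neighbours of dual-enSERT-2. The log2 difference of eGFP was 0.61 in dual-enSERT-1, compared with 2.43 in dual-enSERT-2. Its edgeR estimate of 1.32 ± 0.25 (SE, adjusted p = 0.0092) was not called by DESeq2, and the difference between libraries was not tested.

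Set against each other within a group, the reporters gave 0.707 eGFP UMIs per mCherry UMI (0.676 to 0.740) in Shh cells and 2.90 (2.76 to 3.04) in neighbours of dual-enSERT-1. In dual-enSERT-2 the ratio was 1.17 (1.07 to 1.29) in Shh cells and 1.20 (0.984 to 1.47) in neighbours. The 2 groups of cells thus had ratios on either side of 1 in dual-enSERT-1 and overlapping intervals in dual-enSERT-2. These intervals treat UMIs as independent and leave out the spread between cells. In dual-enSERT-1 the tenth of Shh cells with the most eGFP held 55.1% of its UMIs, and for mCherry the share was 43.8%. In the other lineages, mCherry and eGFP stood at 20.3 and 32.2 CPM in dual-enSERT-1, and stood at 4.36 and 4.63 CPM in dual-enSERT-2. Within dual-enSERT-1 the cells with 2 or more Csf1r UMIs had 186 CPM of mCherry over 29 cells.

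**Figure D2:**
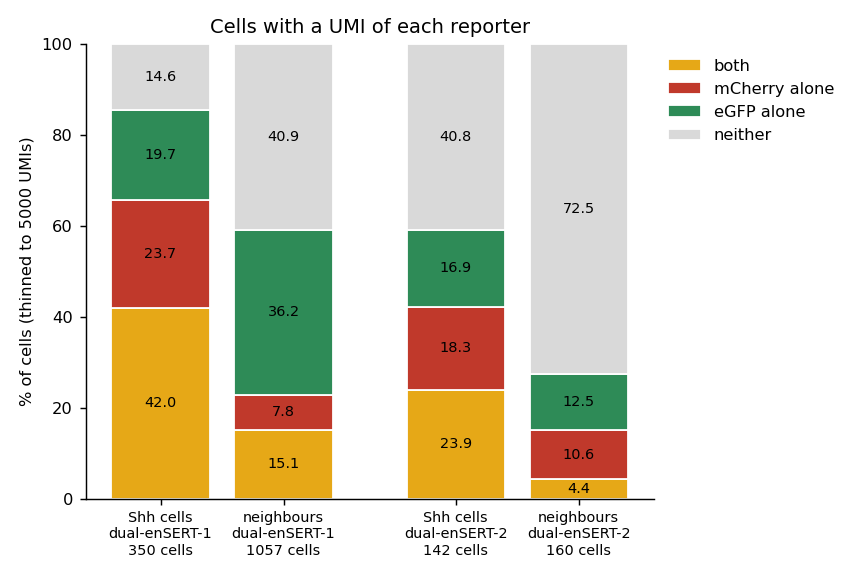
Share of cells (y axis, %) with a UMI of both reporters, of mCherry alone, of eGFP alone or of neither, after thinning to 5000 UMIs per cell, for Shh cells and neighbours of each library (x axis). Both reporters were found in 42.0% of Shh cells and 15.1% of neighbours of dual-enSERT-1, and in 23.9% of Shh cells and 4.4% of neighbours of dual-enSERT-2.

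After thinning, an mCherry UMI was found in 65.7% of Shh cells (60.5 to 70.7%) and 22.9% of neighbours (20.4 to 25.5%) of dual-enSERT-1, against 5.29% of other lineages. The shares in dual-enSERT-2 were 42.3% of Shh cells (34.0 to 50.8%) and 24 of 160 neighbours (9.85 to 21.5%), against 22 of 1471 cells of other lineages. An eGFP UMI was found in 61.7% of Shh cells and 51.4% of neighbours of dual-enSERT-1, with 13.9% in other lineages, and in 40.8% of Shh cells and 16.9% of neighbours of dual-enSERT-2, with 22 of 1471 cells in other lineages. The plot of reporter shares separates the cells further. eGFP without mCherry was seen in 19.7% of Shh cells and 36.2% of neighbours of dual-enSERT-1, and in 16.9% of Shh cells and 12.5% of neighbours of dual-enSERT-2. Without thinning, 83.0% of Shh cells and 38.9% of neighbours of dual-enSERT-1 had both reporters, and 73.9% of Shh cells and 26.3% of neighbours of dual-enSERT-2 did.

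Levels were also read by the number of Shh UMIs in a cell, from neighbours at 0 upward. mCherry stood at 91.4 CPM in neighbours, 361 CPM at 1 Shh UMI, 587 CPM at 2, 476 CPM at 3 to 4 and 682 CPM at 5 or more in dual-enSERT-1. In dual-enSERT-2 it stood at 33.7, 63.4, 107, 143 and 277 CPM over the same classes. eGFP followed in dual-enSERT-2, at 40.6, 96.9, 176, 177 and 284 CPM, whereas in dual-enSERT-1 it stood at 265, 386, 464, 510 and 209 CPM, lowest in the cells with the most Shh. Bmp4 stood at 161, 288, 370, 367 and 430 CPM in dual-enSERT-1 and at 151, 248.9, 313, 276 and 416 CPM in dual-enSERT-2. Grem1 stood at 47.2, 14.4, 9.42, 14.7 and 7.91 CPM in dual-enSERT-1 and at 33.1, 24.2, 4.21, 7.90 and 1.97 CPM in dual-enSERT-2. Cells with 1 Shh UMI belonged to neither group, and 159 of 260 and 29 of 77 of them met the gate of the neighbours. The classes are cut on the value that chose the cells, so these levels are a description.

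**Figure D3:**
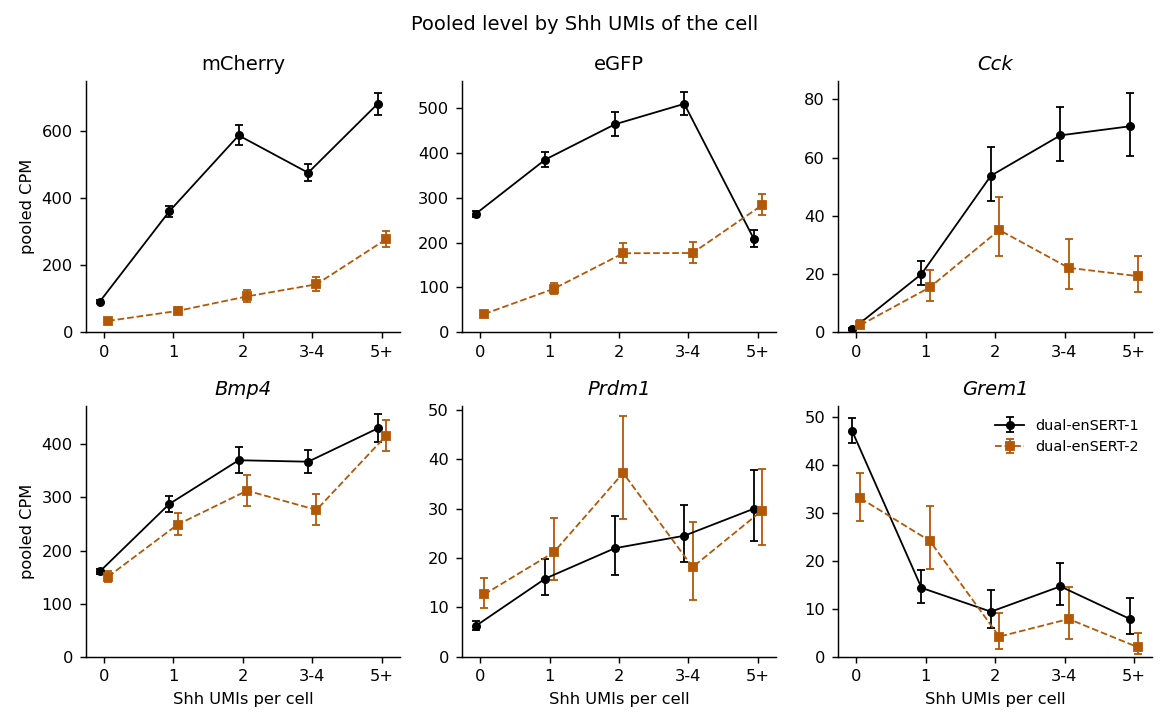
Pooled level in CPM (y axis) by the Shh UMIs of the cell (x axis; 0 are the posterior distal neighbours) for 6 genes, with dual-enSERT-1 in black and dual-enSERT-2 in orange. Bars are exact 95% Poisson intervals. At 5 or more Shh UMIs eGFP stood at 209 CPM in dual-enSERT-1, below its 284 CPM in dual-enSERT-2.

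The reporter levels were uneven over cells, although mCherry and eGFP each had a UMI in 319 of the 352 Shh cells of dual-enSERT-1, and in 115 and 122 of the 142 of dual-enSERT-2. The tenth of Shh cells with the most eGFP held 55.1% of its UMIs in dual-enSERT-1, compared with 41.7% in dual-enSERT-2. For mCherry the shares were 43.8% and 51.3%, compared with 21.3% and 23.9% for Bmp4. Across Shh cells, the Spearman rho of mCherry with eGFP (CPM per cell, sharing library and depth) was 0.206 over 352 cells and 0.511 over 142 cells. The rho of Shh, whose counts chose these cells, was 0.257 and 0.292 with Bmp4, and 0.217 and 0.135 with mCherry. It was 0.137 and -0.015 with Cck, 0.022 and -0.135 with Prdm1, and -0.062 and -0.001 with Ptch1.

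Shh cells with a Cck UMI differed from the other Shh cells in more than Cck, which is given as a description since Cck counts chose them. Prdm1 had 44.7 CPM in the 80 Cck-positive Shh cells and 19.5 CPM in the 272 others of dual-enSERT-1, and 52.5 CPM in the 19 Cck-positive cells and 25.1 CPM in the 123 others of dual-enSERT-2. Tbx3 had 132.5 CPM in Cck-positive and 80.6 CPM in other Shh cells of dual-enSERT-1, and 173 CPM in Cck-positive and 65.9 CPM in other Shh cells of dual-enSERT-2. Hoxd13 was lower in both libraries, with 103 CPM in Cck-positive and 147 CPM in other Shh cells of dual-enSERT-1, and 38.6 CPM in Cck-positive and 78.4 CPM in other Shh cells of dual-enSERT-2. Hoxd12 had 50.6 CPM in Cck-positive and 91.9 CPM in other Shh cells of dual-enSERT-1. In dual-enSERT-2 it had 41.7 CPM (exact Poisson interval 27.5 to 60.6) in Cck-positive and 55.1 CPM (48.1 to 62.8) in other Shh cells, with overlapping intervals. Tbx2 had 142 CPM (exact Poisson interval 125 to 159.8) in Cck-positive and 147 CPM (138 to 157) in other Shh cells of dual-enSERT-1, with overlapping intervals. In dual-enSERT-2 it had 173 CPM (142 to 208) in Cck-positive and 92.9 CPM (83.8 to 103) in other Shh cells. For mCherry the levels were 755 CPM (716 to 796) in Cck-positive and 518 CPM (500.3 to 536) in other Shh cells of dual-enSERT-1. In dual-enSERT-2 mCherry had 153 CPM (124 to 186) in Cck-positive and 195 CPM (182 to 209.5) in other Shh cells, with overlapping intervals. Grem1 was low in either subset, at 9.69 CPM in Cck-positive and 11.4 CPM in other Shh cells of dual-enSERT-1. Median depth was 18024 UMIs in Cck-positive and 20408 UMIs in other Shh cells of dual-enSERT-1, and 32118 and 31327 UMIs in dual-enSERT-2.

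The remaining genes are given by 32 lists of pathways and cell states, read against the 2.75% of all genes that were called and the median log2 difference of -0.01 over all genes tested. The lists were chosen with earlier results of these data known. Their counts of calls are therefore a description, and enrichment over the 2.75% was not tested. Of the list genes, 71 were called, and DESeq2 also called 37 of them. A gene in more than 1 list counts in each. With neighbours taken without the Tbx2 plus Tbx3 condition, the 12 that were not called were Dkk2, Dusp6, Epha7, Gpc4, Lhx9, Meis1, Meis2, Pcdh10, Rarb, Robo1, Sfrp1 and Shox2. With Shh cells at 1 or more Shh UMIs, the 13 that were not called were Col3a1, Crabp2, Dusp6, Efnb1, Gpc4, Hoxd11, Lama2, Nkain3, Notch1, Pcdh10, Pcdh17, Shox2 and Sox5. After thinning to 5000 UMIs per cell, the 14 that were tested and not called were Efnb1, Epha7, Etv1, Etv4, Gli1, Itga9, Junb, Lama2, Nkd2, Pcdh17, Sfrp1, Sfrp2, Shox2 and Zbtb16.

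Of 7 genes tested for production and release, 1 was lower in Shh cells and 6 were not called (median log2 difference -0.11). The called gene was the glypican Gpc4, at 4.50 CPM in Shh cells and 9.60 CPM in neighbours of dual-enSERT-1, and 2.97 CPM in Shh cells and 6.33 CPM in neighbours of dual-enSERT-2 (edgeR adjusted p = 0.0211, not called by DESeq2). Its log2 difference was -1.08, against -0.40 without the Tbx2 plus Tbx3 condition on neighbours and -0.53 with Shh cells at 1 or more Shh UMIs, neither of which was called. Hhat, which adds palmitate to Shh, and Disp1, which exports it, had log2 differences of 0.29 (edgeR adjusted p = 0.308) and -0.00 (0.999).

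On the receiving side, the co-receptors Boc and Gas1, which help Shh bind Patched, were lower in Shh cells, and the other 5 of 7 receptor genes tested were not called (median log2 difference -0.44). Boc had 18.9 CPM in Shh cells and 34.5 CPM in neighbours of dual-enSERT-1, and 7.21 CPM in Shh cells and 19.4 CPM in neighbours of dual-enSERT-2, a log2 difference of -1.001 ± 0.152 (SE, edgeR adjusted p = 0.00166, DESeq2 adjusted p = 0.0628). Gas1 had 58.9 CPM in Shh cells and 95.3 CPM in neighbours of dual-enSERT-1, and 14.0 CPM in Shh cells and 30.1 CPM in neighbours of dual-enSERT-2. Its log2 difference was -0.78 ± 0.11 (SE, edgeR adjusted p = 0.00129), and DESeq2 called it too.

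Ptch1, both receptor and target of the pathway, was high in both groups. It had 202 CPM in Shh cells and 226 CPM in neighbours of dual-enSERT-1, and 264 CPM in Shh cells and 249.1 CPM in neighbours of dual-enSERT-2. The log2 difference was -0.05 ± 0.09 (SE, edgeR adjusted p = 0.983), and the directions of the libraries were opposite. Thinned shares of cells with Ptch1 were 62.6% of Shh cells and 64.1% of neighbours of dual-enSERT-1, and 69.7% of Shh cells and 71.2% of neighbours of dual-enSERT-2, against 24.8% and 10.4% in other lineages.

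Of the 11 pathway response genes tested, 3 were lower in Shh cells (Grem1, Gli1 and Hoxd11), 8 were not called and the median was -0.36. Gli1, an activator and target, had 13.7 CPM in Shh cells and 24.6 CPM in neighbours of dual-enSERT-1, and 25.02 CPM in Shh cells and 31.1 CPM in neighbours of dual-enSERT-2. Its log2 difference of -0.60 ± 0.14 (SE, edgeR adjusted p = 0.0343) was not called by DESeq2, with cells of 10000 to 40000 UMIs only or after thinning. Gli2, the main activator of the pathway, had the most negative log2 difference of the 3 Gli genes. It had 24.7 CPM in Shh cells and 61.8 CPM in neighbours of dual-enSERT-1, and 29.5 CPM in Shh cells and 65.5 CPM in neighbours of dual-enSERT-2, a log2 difference of -1.25 ± 0.10 (SE, edgeR adjusted p = 9.99e-06). Gli3, which acts mainly as a repressor in the limb, had a log2 difference of -0.32 ± 0.09 (SE, edgeR adjusted p = 0.0781).

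**Figure D4:**
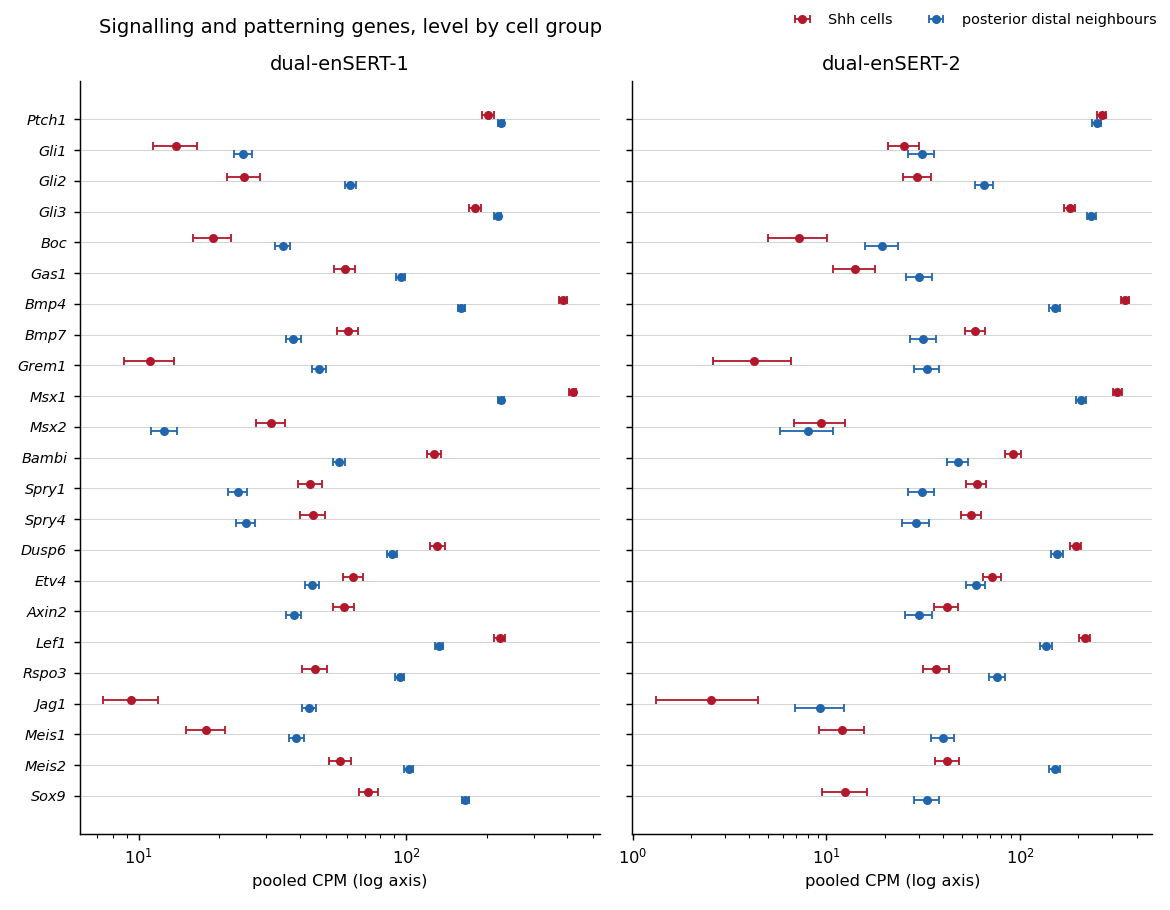
Pooled level in CPM (x axis, log scale) of 23 signalling and patterning genes (y axis) in Shh cells (red) and posterior distal neighbours (blue), 1 panel per library, with exact 95% Poisson intervals. Ptch1 intervals lay close together, Bmp4 and Msx1 stood to the right in Shh cells, and Grem1, Gli2 and Jag1 stood to the left.

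Of 5 BMP ligands tested, Bmp4 and Bmp7 were higher in Shh cells and 3 were not called (median 0.50). Bmp7 had 60.3 CPM in Shh cells and 37.9 CPM in neighbours of dual-enSERT-1, and 58.7 CPM in Shh cells and 31.6 CPM in neighbours of dual-enSERT-2, a log2 difference of 0.76 ± 0.10 (SE, edgeR adjusted p = 0.000434). Bmp2 had 15.7 CPM in Shh cells and 17.0 CPM in neighbours of dual-enSERT-1, and 0.848 CPM in Shh cells and 1.67 CPM in neighbours of dual-enSERT-2, and was not called. Of 6 antagonists, Grem1 was lower and 5 were not called (median -0.13).

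Of 10 BMP response genes tested, 3 were higher in Shh cells and 7 were not called (median 0.15). Msx1, a homeobox target of BMP, had 419 CPM in Shh cells and 226 CPM in neighbours of dual-enSERT-1, and 318 CPM in Shh cells and 206 CPM in neighbours of dual-enSERT-2, a log2 difference of 0.77 ± 0.10 (SE, edgeR adjusted p = 0.000332). Bambi, a decoy receptor induced by BMP, had 127 CPM in Shh cells and 56.0 CPM in neighbours of dual-enSERT-1, and 92.2 CPM in Shh cells and 47.6 CPM in neighbours of dual-enSERT-2 (edgeR adjusted p = 1.5024e-05). Msx2 had 31.1 CPM in Shh cells and 12.5 CPM in neighbours of dual-enSERT-1, and 9.33 CPM in Shh cells and 8.001 CPM in neighbours of dual-enSERT-2, and DESeq2 did not call it. The immediate SMAD targets Id1 and Id3 were not called, with log2 differences of -0.07 and 0.06. The BMP receptor Bmpr1b was lower, at 53.2 CPM in Shh cells and 152 CPM in neighbours of dual-enSERT-1, and 9.33 CPM in Shh cells and 28.8 CPM in neighbours of dual-enSERT-2 (log2 difference -1.51 ± 0.10 SE, edgeR adjusted p = 3.94e-06).

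Of 12 FGF receptor and feedback genes tested, 4 were higher in Shh cells, 0 were lower and 8 were not called (median 0.18). Spry1, an intracellular inhibitor of FGF signalling, had 43.7 CPM in Shh cells and 23.5 CPM in neighbours of dual-enSERT-1, and 59.6 CPM in Shh cells and 31.1 CPM in neighbours of dual-enSERT-2 (log2 difference 0.92 ± 0.10 SE, edgeR adjusted p = 0.000114). Spry4 had 44.7 CPM in Shh cells and 25.1 CPM in neighbours of dual-enSERT-1, and 56.0 CPM in Shh cells and 29.0 CPM in neighbours of dual-enSERT-2 (edgeR adjusted p = 0.000164). Dusp6 and Etv4, which are read as targets of ridge FGF, rose less, by 0.45 and 0.42 on the log2 scale, and were not called by DESeq2. Without the Tbx2 plus Tbx3 condition on neighbours the log2 difference of Dusp6 was 0.05 (edgeR adjusted p = 0.962). Dusp6 was not called with Shh cells at 1 or more Shh UMIs either, nor Etv4 after thinning. The receptor Fgfr1 had a log2 difference of -0.02 (edgeR adjusted p = 0.995).

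Among 12 ETS factors, a family that binds the ZRS, Etv1 and Etv4 were higher, Fli1 and Erg were lower and 8 were not called. None of the 4 was called by DESeq2. Ets1 and Gabpa, known ZRS binders, had log2 differences of -0.17 and 0.21 and were not called.

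Of 16 WNT response genes and modulators tested, 5 were higher (Axin2, Lef1, Ankrd6, Notum and Nkd2), 3 were lower (Dkk2, Sfrp1 and Sfrp2) and 8 were not called. Lef1, a nuclear effector of WNT signalling, had 224 CPM in Shh cells and 133 CPM in neighbours of dual-enSERT-1, and 215 CPM in Shh cells and 136 CPM in neighbours of dual-enSERT-2 (log2 difference 0.71 ± 0.09 SE, edgeR adjusted p = 0.000236). Ankrd6 had 31.8 CPM in Shh cells and 17.0 CPM in neighbours of dual-enSERT-1, and 57.04 CPM in Shh cells and 15.3 CPM in neighbours of dual-enSERT-2 (edgeR adjusted p = 0.000463). DESeq2 called Lef1 and Ankrd6 but not the other 6 of the 8. Without the Tbx2 plus Tbx3 condition on neighbours, Dkk2 and Sfrp1 were not called and had log2 differences of -0.60 and -0.42, against -1.42 and -0.81 with it. Rspo3, a secreted WNT enhancer, was lower, with 45.5 CPM in Shh cells and 94.5 CPM in neighbours of dual-enSERT-1, and 36.9 CPM in Shh cells and 75.9 CPM in neighbours of dual-enSERT-2 (log2 difference -1.04 ± 0.09 SE, edgeR adjusted p = 1.82e-05), while the other 5 ligands tested were not called.

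Of 6 proximal genes tested, 5 were lower in Shh cells and 1 was not called (median -0.82). Meis1, a proximal homeobox gene, had 17.9 CPM in Shh cells and 38.9 CPM in neighbours of dual-enSERT-1, and 12.1 CPM in Shh cells and 39.8 CPM in neighbours of dual-enSERT-2. Meis2 had 56.7 CPM in Shh cells and 102 CPM in neighbours of dual-enSERT-1, and 42.0 CPM in Shh cells and 151 CPM in neighbours of dual-enSERT-2. DESeq2 called Meis1 and Pbx3 but not Meis2, Shox2 or Zbtb16, and Shox2 and Zbtb16 were not called after thinning. Meis1, Meis2 and Shox2 lost their calls when neighbours were taken without the Tbx2 plus Tbx3 condition. The log2 differences of Meis1 and Meis2 were then -0.41 and -0.18, and that of Shox2 was 0.23, the opposite sign.

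Among 9 distal genes tested, Lhx2, Lhx9, Msx1 and Tfap2c were higher, Lmo1 was lower and 4 were not called (median 0.50). Lhx9 had a log2 difference of 0.50 (edgeR adjusted p = 0.0126), against 0.18 (adjusted p = 0.399) without the Tbx2 plus Tbx3 condition on neighbours. Lhx2, a LIM homeobox gene that relays ridge FGF to Shh, had 236 CPM in Shh cells and 121 CPM in neighbours of dual-enSERT-1, and 268 CPM in Shh cells and 148 CPM in neighbours of dual-enSERT-2 (log2 difference 0.92 ± 0.09 SE, edgeR adjusted p = 2.95e-05). Tfap2c had 37.1 CPM in Shh cells and 16.2 CPM in neighbours of dual-enSERT-1, and 51.5 CPM in Shh cells and 18.8 CPM in neighbours of dual-enSERT-2 (edgeR adjusted p = 1.57e-05). Of the 9 Hox genes tested, 8 were not called and Hoxd11 was lower, by 0.36 on the log2 scale (edgeR adjusted p = 0.040, not called by DESeq2). The median log2 difference of the 9 was -0.23, and 6 had an unadjusted edgeR p under 0.05.

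Of 9 further T-box and posterior factors tested, Prdm1 was higher, Tbx15 and Sall3 were lower and 6 were not called (median -0.19). Tbx15 had 163 CPM in Shh cells and 347 CPM in neighbours of dual-enSERT-1, and 107 CPM in Shh cells and 227 CPM in neighbours of dual-enSERT-2 (log2 difference -1.09 ± 0.09 SE, edgeR adjusted p = 8.81e-06). Of 8 anterior genes tested, Asb4 was lower, Lhx9 was higher, with the limit given above, and 6 were not called.

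**Figure D5:**
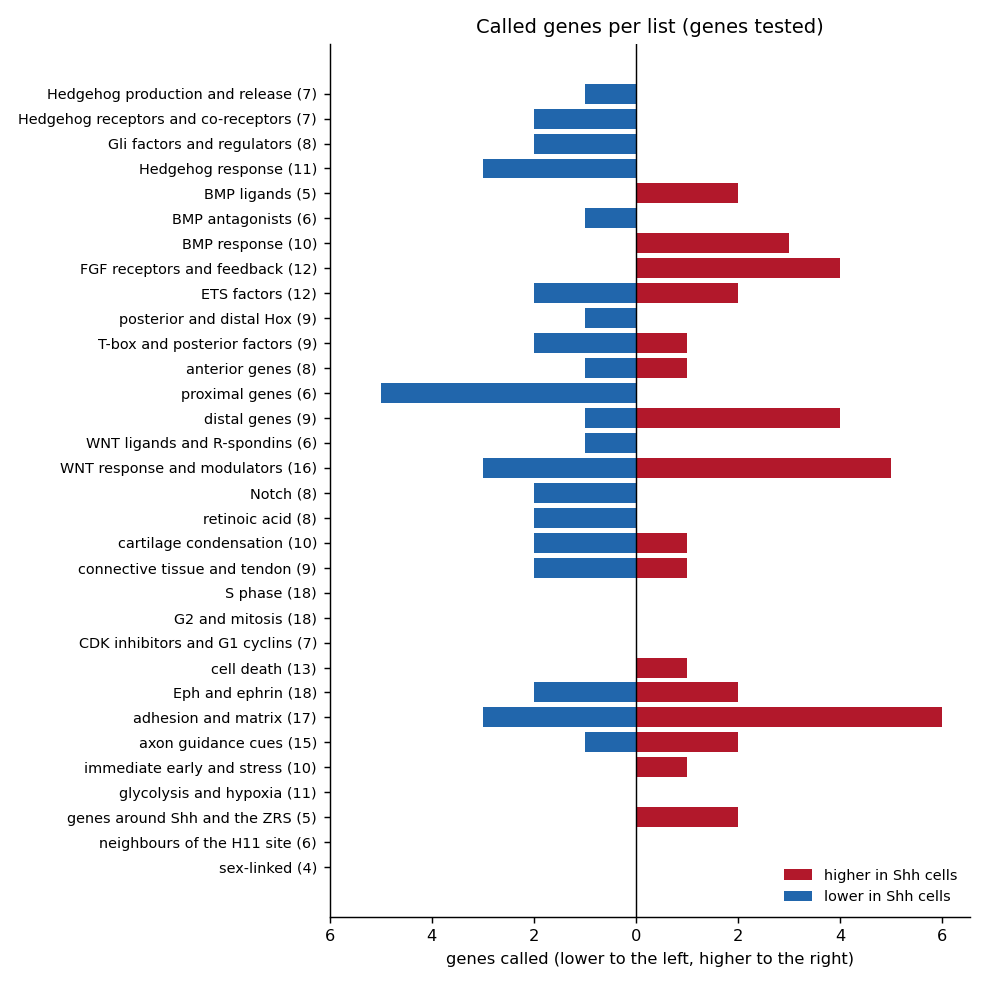
Number of called genes per list (x axis), lower in Shh cells to the left in blue and higher to the right in red, for 32 gene lists (y axis, with the number of genes tested). FGF feedback and BMP response hold calls to the right alone, proximal genes to the left alone, and the S phase (18) and mitosis (18) lists hold none.

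Sox9, the master regulator of cartilage, had 72.2 CPM in Shh cells and 166 CPM in neighbours of dual-enSERT-1, and 12.5 CPM in Shh cells and 33.1 CPM in neighbours of dual-enSERT-2 (log2 difference -1.23 ± 0.10 SE, edgeR adjusted p = 1.19e-05). Col9a1 was lower as well, Sox5 was higher and 7 of the 10 cartilage genes tested were not called. Of 9 connective tissue genes, Col1a1 and Col1a2 were lower, Col3a1 was higher and 6 were not called. DESeq2 called Col1a2 but not Col1a1 or Col3a1. Col1a2 had 59.8 CPM in Shh cells and 121 CPM in neighbours of dual-enSERT-1, and 16.8 CPM in Shh cells and 29.0 CPM in neighbours of dual-enSERT-2.

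Jag1, a Notch ligand, was the second lowest list gene by log2 difference. It had 9.37 CPM in Shh cells and 43.3 CPM in neighbours of dual-enSERT-1, and 2.54 CPM in Shh cells and 9.30 CPM in neighbours of dual-enSERT-2 (log2 difference -2.13 ± 0.16 SE, edgeR adjusted p = 8.10e-06). Notch1 was also lower (edgeR adjusted p = 0.0298, not called by DESeq2), and the other 6 Notch genes tested were not called. Of 8 retinoic acid genes, Crabp2, a binding protein, and Rarb, a receptor and target, were lower and 6 were not called. DESeq2 called Crabp2 but not Rarb. Rarb had a log2 difference of -1.41, against -0.69 (edgeR adjusted p = 0.0513) without the Tbx2 plus Tbx3 condition on neighbours.

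Of 17 adhesion and matrix genes, 6 were higher (Lama1, Adamts17, Sgcz, Kirrel3, Itga9 and Nkain3), 3 were lower (Lama2, Pcdh10 and Pcdh17) and 8 were not called. This list was chosen with earlier results of these data known, so the counts describe its members and not adhesion genes as a class. DESeq2 called Lama1, Adamts17 and Sgcz but not the other 6 of the 9, and the 3 lower genes were not called without doublets or with Shh cells at 1 or more Shh UMIs. Pcdh10 had a log2 difference of -0.90, against -0.15 (edgeR adjusted p = 0.958) without the Tbx2 plus Tbx3 condition on neighbours. Lama1, a laminin chain of basement membranes, had 52.6 CPM in Shh cells and 21.5 CPM in neighbours of dual-enSERT-1, and 56.0 CPM in Shh cells and 24.4 CPM in neighbours of dual-enSERT-2 (edgeR adjusted p = 9.99e-06). Itga6, a laminin-binding integrin chain, had 23.6 CPM in Shh cells and 10.4 CPM in neighbours of dual-enSERT-1, and 24.4 CPM in Shh cells and 4.65 CPM in neighbours of dual-enSERT-2 (edgeR adjusted p = 0.000572). Among 18 Eph and ephrin genes, the ligands Efnb1 and Efnb2 were higher, the receptors Epha4 and Epha7 were lower and 14 were not called. DESeq2 called Efnb2 and Epha4 but not Efnb1 or Epha7, which were not called after thinning either. Efnb2 had 56.1 CPM in Shh cells and 25.2 CPM in neighbours of dual-enSERT-1, and 37.7 CPM in Shh cells and 17.9 CPM in neighbours of dual-enSERT-2 (edgeR adjusted p = 2.76e-05). Of 15 guidance genes, the neuropilins Nrp1 and Nrp2 were higher, Robo1 was lower and 12 were not called, and DESeq2 called Nrp2 and Robo1 but not Nrp1. The log2 difference of Robo1 was -0.52 (edgeR adjusted p = 0.00514), against -0.08 (adjusted p = 0.881) without the Tbx2 plus Tbx3 condition on neighbours, where that of Epha7 was -0.13 (adjusted p = 0.685).

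Of 18 S phase genes and 18 mitosis genes tested, edgeR and DESeq2 called 0 in either direction (medians -0.01 and 0.05), and 1 and 0 of them had an unadjusted edgeR p under 0.05. Of 7 CDK inhibitors and G1 cyclins, 0 were called by edgeR or DESeq2 (1 at an unadjusted p under 0.05), with Ccnd1 at 310 CPM in Shh cells and 277 CPM in neighbours of dual-enSERT-1, and 278 CPM in Shh cells and 315 CPM in neighbours of dual-enSERT-2. Of 13 cell death genes, 1 was called higher, Pmaip1, which encodes the pro-apoptotic protein Noxa. It had 210 CPM in Shh cells and 120 CPM in neighbours of dual-enSERT-1, and 63.8 CPM in Shh cells and 29.0 CPM in neighbours of dual-enSERT-2 (log2 difference 0.92 ± 0.09 SE, edgeR adjusted p = 7.08e-05). Of 10 immediate early and stress genes Junb was higher (not called by DESeq2 or after thinning), and of 11 glycolysis and hypoxia genes 0 were called by edgeR or DESeq2 (3 at an unadjusted p under 0.05).

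Near the Shh locus, 2 of 5 genes tested were higher in Shh cells and 3 were not called (median 0.65). Mnx1, a homeobox gene (chromosome 5, 29678032 to 29683636, minus strand, GRCm39), had 18.0 CPM in Shh cells and 2.50 CPM in neighbours of dual-enSERT-1, from 144 and 63 UMIs. In dual-enSERT-2 it had 4.03 CPM in Shh cells and 0.186 CPM in neighbours, from 19 UMIs and 1 UMI, and the ratio was 21.7 with an interval of 3.44 to 899.8. The log2 difference was 2.96 ± 0.26 (SE, edgeR adjusted p = 1.69e-05), and DESeq2 called it. Lmbr1, the gene whose intron holds the ZRS (chromosome 5, 29434800 to 29583510, minus strand), had 34.1 CPM in Shh cells and 22.3 CPM in neighbours of dual-enSERT-1, and 31.2 CPM in Shh cells and 19.2 CPM in neighbours of dual-enSERT-2 (log2 difference 0.65 ± 0.12 SE, edgeR adjusted p = 0.00534, not called by DESeq2). Rnf32, between Shh and Lmbr1, had a log2 difference of 0.75 ± 0.21 (SE, edgeR adjusted p = 0.0917).

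Of the 6 genes tested around the H11 insertion site, 0 were called by edgeR or DESeq2 (median log2 difference 0.32), and 3 had an unadjusted edgeR p under 0.05. Eif4enif1 (chromosome 11, 3152235 to 3194588, plus strand, GRCm39) had 205 CPM in Shh cells and 109 CPM in neighbours of dual-enSERT-1, which is 1.88 times as much (1.765 to 1.996). Its level was 55.8 CPM in Shh cells and 57.7 CPM in neighbours of dual-enSERT-2, or 0.967 times as much (0.817 to 1.14). The joint log2 difference was 0.58 ± 0.16 (SE, edgeR adjusted p = 0.0833), and the difference between the libraries was not tested. Drg1, annotated on the opposite strand over the same stretch, had 147 CPM in Shh cells and 125 CPM in neighbours of dual-enSERT-1, and 117 CPM in Shh cells and 105 CPM in neighbours of dual-enSERT-2, and was not called. The handling of antisense reads over such a stretch is not given in the sources used here. The 4 sex-linked genes tested were not called, and 0 had an unadjusted p under 0.05.

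The other named genes, taken by the size of their change in both libraries, add further members on each side. Dach1, a transcriptional cofactor, was higher in Shh cells, with 1198 CPM in Shh cells and 627 CPM in neighbours of dual-enSERT-1 and 390 CPM in Shh cells and 142 CPM in neighbours of dual-enSERT-2. Slc16a10, a transporter of aromatic amino acids, was also higher, with 73.8 CPM in Shh cells and 32.9 CPM in neighbours of dual-enSERT-1 and 29.7 CPM in Shh cells and 12.8 CPM in neighbours of dual-enSERT-2. Mtss1 and Elmo1, regulators of the actin cytoskeleton, rose by 1.07 and 1.27 on the log2 scale. Their log2 differences in dual-enSERT-1 were 1.06 and 1.23, compared with 1.06 and 1.10 in dual-enSERT-2. Lower were Mab21l2, Gpc5, Lrig3, Aff3, Maml2 and Flrt2, with joint log2 differences between -0.93 (Flrt2) and -1.16 (Gpc5). Mab21l2 and Lrig3 had log2 differences of -0.91 and -0.93 in dual-enSERT-1, compared with -1.38 and -1.63 in dual-enSERT-2. For Gpc5, Aff3, Maml2 and Flrt2 they were -1.04, -1.05, -0.89 and -0.87 in dual-enSERT-1, compared with -1.17, -0.92, -1.07 and -0.93 in dual-enSERT-2. DESeq2 did not call Lrig3, Flrt2 or Meis2 among the 30.

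The calls were repeated with other choices of cells. Shh cells restricted to those that also met the conditions of the neighbours (303 and 98 cells) gave 373 of the 374 calls, and all 31 named genes with eGFP included. Without Scrublet doublets (295 and 141 Shh cells, 774 and 156 neighbours) 355 of the 374 were called again, and again all 31 named genes. With Shh cells at 3 or more Shh UMIs 360 of the 374 were called, and with those at 1 or more 295 were. With cells of 10000 to 40000 UMIs 342 were called, and with neighbours taken without the Tbx2 plus Tbx3 condition 314 were. These fits leaned more on the variance shared across genes. Prior degrees of freedom were 12.35 in the main fit, 137.97 without doublets and 167.73 without the Tbx2 plus Tbx3 condition. They were infinite for Shh cells in the gate of the neighbours. The number of calls kept therefore does not measure the choice of cells alone.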

How the data were processed

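Deposited values were raw UMI counts per gene and barcode, which the authors made with Cell Ranger 7.0.1 per the file headers; Cell Ranger 3.1.0, Seurat 4 and mm39 appear in the submitters' processing notes. Overlapping genes are uncertain, because the handling of intronic and antisense reads is not given in the sources used here. Per the labels, 10000 cells were loaded per library at about 50000 reads per cell. Members and gene lists were chosen with earlier results of these data known. Pooled UMIs per Shh group ranged from 4715613 to 8007421, and per neighbour group from 5374508 to 25195373. The counts of the 4 profiles (2 libraries, 2 cell groups) were tested with edgeR 4.0.16 (quasi-likelihood, library block, TMM, filterByExpr, Benjamini-Hochberg at 0.05), and with DESeq2 1.42.0 as an alternative. Shh, Hoxd13, Hoxa13, Hand2, Tbx2 and Tbx3 stayed out of the test, and genes that gated both groups alike, such as Prrx1, stayed in. Cells of 1 library are not replicates. Shares of cells were read after thinning to 5000 UMIs. Doublets were called with Scrublet (Scanpy 1.11.5, rate 8%) and kept. Named genes were up to 15 per direction, ordered by the weaker of the 2 per-library log2 folds (pseudocount 1 CPM), where both libraries had one sign and at least 20 CPM in the higher group, plus the reporters and markers. The library block pairs the 2 groups of each embryo.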

Additional observations from a re-analysis of the deposited data

Results flagged for a closer look

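Among the list genes, 4 moved in opposite directions in the 2 libraries by at least 0.25 on the log2 scale of pooled CPM in each; with 1 embryo per construct the difference was not tested, and edgeR called none of the 4. Dlk1, an imprinted Notch-related ligand, had 55.2 CPM in Shh cells and 67.9 CPM in neighbours of dual-enSERT-1 (log2 difference -0.29), whereas it had 179.6 CPM in Shh cells and 132 CPM in neighbours of dual-enSERT-2 (0.44). Sox6, a cartilage factor, had 63.4 CPM in Shh cells and 86.6 CPM in neighbours of dual-enSERT-1 (-0.44), whereas it had 52.2 CPM in Shh cells and 22.9 CPM in neighbours of dual-enSERT-2 (1.15). The other 2 were low. The ephrin Efna1 had 4.62 CPM in Shh cells and 13.97 CPM in neighbours of dual-enSERT-1 (-1.41), whereas it had 4.03 CPM in Shh cells and 1.67 CPM in neighbours of dual-enSERT-2 (0.91). The R-spondin Rspo2 had 4.37 CPM in Shh cells and 6.59 CPM in neighbours of dual-enSERT-1 (-0.50), whereas it had 8.69 CPM in Shh cells and 3.91 CPM in neighbours of dual-enSERT-2 (0.98).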

How the results depend on the processing

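Of 374 calls, the count was 614 with RLE scaling, 629 with no filter on low counts, 625 with Shh cells restricted to the gate of the neighbours, 841 with neighbours taken without the Tbx2 plus Tbx3 condition, 586 without doublets, 244 after thinning to 5000 UMIs, 118 with DESeq2 and 0 without the library block, that is, with the pairing of groups within an embryo dropped (288 at an unadjusted p under 0.05). The calls shared with the 374 were 374, 374, 373, 314, 355, 206, 118 and 0. Other cell choices gave 333 to 523 calls. The prior degrees of freedom differed between these fits too, at 455.7 with RLE scaling and infinite with no filter and after thinning. None of the 31 named genes reversed. The calls lost were those of Lrig3, Flrt2, Meis2 and eGFP with DESeq2, Meis1 and Meis2 without the Tbx condition, Flrt2 after thinning, and all 31 without the block. Leaving out a library leaves 1 profile per group, which gives values and no test. Beyond 1 SD over the libraries, 13 named genes then moved without dual-enSERT-1 (Cck, mCherry, Lama1, Slc16a10, Prdm1, Elmo1, Mtss1, Efnb2, Sox9, Gli2, Tbx15, Rspo3 and Lrig3) and 5 without dual-enSERT-2 (Slc16a10, Mtss1, Tbx15, Gpc5 and Flrt2). That SD is taken over the same 2 library values, so it is smallest where the libraries agree best. Genes with close agreement, such as Mtss1 and Tbx15, thus count as moved by very small differences. Without dual-enSERT-1 the log2 fold of pooled CPM, with its pseudocount of 1 CPM, was 2.92 for Cck, 1.13 for Prdm1 and -1.63 for Lrig3. The edgeR estimates with both libraries were 5.50, 1.70 and -1.13. These measures differ, so the gaps do not give the effect of leaving out an embryo alone. The counts of moved genes set the same measures against each other. Taking the mean of each cell's CPM moved 11. The cause of these shifts was not tested. Precision is limited by 2 embryos and 1 residual degree of freedom, and in dual-enSERT-2 by 142 Shh cells and 160 neighbours.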
